A study of Danio rerio with 30 samples.

Results

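The circadian clock genes measured here are the 4 period genes per1a, per1b, per2 and per3, the cryptochrome cry1a, the REV-ERB receptors nr1d1, nr1d2a and nr1d2b, the PAR bZIP factor tefa and the E-box repressor bhlhe41. They were chosen by gene symbol, with earlier results of these data known. Each gene was followed through the array probe set that carried its symbol alone. Only per2 had more than one, and the one with the highest mean was used. All 10 genes were found among the 20806 probe sets with 1 symbol, of 75212 in all. All 10 were among the 40670 probe sets tested, which had a linear mean intensity above 20 in at least 1 group.

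The clock of vertebrate cells is a loop of transcription. Clock and Bmal proteins bind E-boxes and switch on the period, cryptochrome, nr1d and bhlhe genes, and the period and cryptochrome proteins then hold Clock and Bmal back. The nr1d receptors repress bmal genes, and PAR bZIP factors such as tefa act on D-boxes of output genes. In zebrafish most tissues keep such a clock and are themselves sensitive to light, with per2 and cry1a known as light-induced genes.

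RNA of the adult zebrafish telencephalon was hybridised to 30 whole-transcript arrays. All fish were wild-type, aged 3 to 5 months by the labels, and kept under standard husbandry. No transgene or deletion is named for any group in the sources used here. The 9 groups were intact telencephalon and telencephalon at 1, 2, 3 and 7 days after injury (dpi), after either a nostril injury, made with a capillary through the nostril, or a skull injury, made with a micro-knife through the skull. Both injuries were made in both hemispheres under MS222 anaesthesia, and no sham-operated group was analysed here. Intact and skull 3 dpi had 4 replicates each and the other groups had 3, giving 29 replicates. Intact replicate 1 is the mean of its pair of technical arrays. The sources used here do not say whether a replicate was 1 fish or a pool. If replicates shared fish, the p-values measure a spread that is partly technical. The hour at which tissue was collected is not given in the sources used here, and its part in the values was not tested.

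Values are log2 intensities after robust multi-array averaging (RMA), so a difference of 1 is a doubling. They compare groups for 1 probe set, not one gene with another. The arrays had medians from 4.22 to 4.35. Replicates of the same group correlated at 0.979 to 0.988, except at skull 3 dpi, where the range was 0.963 to 0.974. All 6 telencephalon markers matched on the array had a linear mean above 20 in every group. As the tissue is a mixture, fewer cells of a type and less RNA per cell cannot be told apart. A gene is said to have risen or fallen where limma's moderated test, with all 9 groups in 1 fit, gave an adjusted p under 0.05 over the 40670 tested probe sets (Benjamini-Hochberg).

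Some clock genes were called at 7 dpi. After nostril injury per1a, per1b, nr1d1 and bhlhe41 rose against intact telencephalon, 4 of 10 genes, where 1.21% of all tested probe sets rose. After skull injury the same 4 of 10 rose, where 0.519% of all tested probe sets did. No clock gene fell at 7 dpi after either injury, where 0.538% and 0.189% of tested probe sets fell. The median difference of the 10 genes was 0.43 after nostril injury and 0.44 after skull injury, and that of all tested probe sets was -0.0037 and 0.0061. Both comparisons use the same 4 intact replicates. As the 10 genes were chosen with earlier results of these data known, their share beside that of all probe sets is no independent test.

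**Figure D1:**
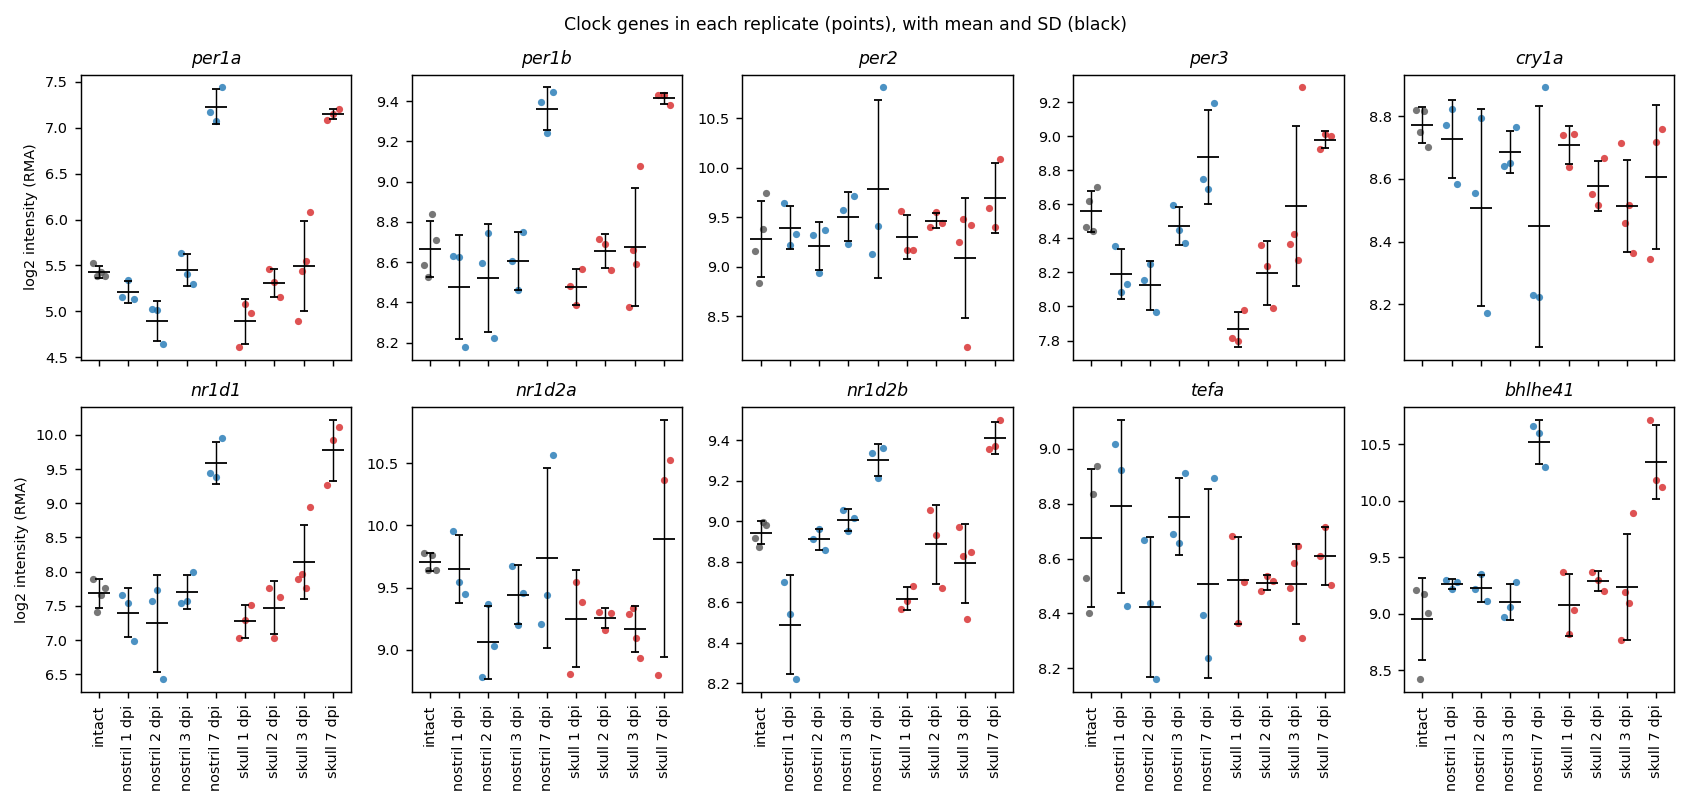
Log2 RMA intensity (y axis) of the 10 clock genes in every replicate of the 9 groups (x axis), with points in grey for intact, blue for nostril and red for skull injury, and black bars for the mean and SD. For per1a the 6 replicates at 7 dpi lie between 7.07 and 7.44, above all other replicates, which reach 6.08.

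The period gene per1a encodes a repressor of the loop. In intact telencephalon its log2 intensities were 5.53, 5.38, 5.43 and 5.39. At 7 dpi they were 7.18, 7.07 and 7.44 after nostril injury and 7.09, 7.15 and 7.20 after skull injury. Every 7 dpi replicate lay above every intact replicate and above every replicate of days 1 to 3. The difference was 1.80 (SE 0.18) after nostril injury, a 3.47-fold rise (adjusted p = 2.5e-05, limma), and 1.72 (SE 0.18) after skull injury, a 3.29-fold rise (adjusted p = 5.9e-05, limma).

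The receptor gene nr1d1, also known as Rev-erb alpha, encodes a repressor of bmal transcription. Its intact values were 7.89, 7.41, 7.66 and 7.77. They stood at 9.44, 9.38 and 9.95 at nostril 7 dpi and at 9.27, 9.93 and 10.12 at skull 7 dpi. Again no 7 dpi replicate overlapped the intact ones. This was the largest difference among the 10 genes, at 1.91 (SE 0.30) or 3.75-fold after nostril injury (adjusted p = 0.0027, limma) and 2.09 (SE 0.30) or 4.26-fold after skull injury (adjusted p = 0.0025, limma).

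The gene bhlhe41, or Dec2, encodes a basic helix-loop-helix repressor that acts at E-boxes. Intact replicates measured 9.21, 8.42, 9.17 and 9.01, replicate 2 being the lowest of all 29. At 7 dpi the values were 10.66, 10.60 and 10.30 after nostril injury and 10.72, 10.19 and 10.12 after skull injury. The groups did not overlap. Its difference was 1.57 (SE 0.21), 2.96-fold, after nostril injury (adjusted p = 5.6e-04, limma) and 1.39 (SE 0.21), 2.62-fold, after skull injury (adjusted p = 0.0032, limma). The calls of per1a, nr1d1 and bhlhe41 after both injuries held without any single replicate of the groups compared.

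The smallest called rise was that of per1b, the paralogue of per1a. Intact values of 8.59, 8.53, 8.84 and 8.71 compared with 9.40, 9.24 and 9.45 at nostril 7 dpi and 9.43, 9.43 and 9.38 at skull 7 dpi. The groups were again separate. The rise was 0.70 (SE 0.14), 1.62-fold, after nostril injury (adjusted p = 0.014, limma) and 0.75 (SE 0.14), 1.68-fold, after skull injury (adjusted p = 0.018, limma). Some single replicates decided these calls, 3 of 7 left out in turn for nostril and 4 of 7 for skull injury. Without intact replicate 2 the adjusted p was 0.060 and 0.077, without nostril 7 dpi replicate 1 or 3 it was 0.075 and 0.051, and without skull 7 dpi replicate 1, 2 or 3 it was 0.086, 0.057 and 0.078, with differences of 0.65 to 0.77 throughout.

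Without passing the test, nr1d2b was higher in every 7 dpi replicate after both injuries, and per3 after skull injury alone. The REV-ERB gene nr1d2b had intact values of 8.919, 8.874, 8.997 and 8.983, against 9.34, 9.21 and 9.36 at nostril 7 dpi and 9.36, 9.37 and 9.50 at skull 7 dpi. The groups did not overlap, yet the differences of 0.36 (adjusted p = 0.10, limma) and 0.47 (adjusted p = 0.051, limma) stayed outside the threshold. At skull 7 dpi it was called under 5 of the alternatives, with technical array 2 alone (adjusted p = 0.044), arrays centred on their medians (0.024), trended and robust moderation (0.030), array weights (0.020) and without skull 3 dpi in the fit (0.023). Its replicates varied little, with a residual SD of 0.13 at percentile 10.4 of the tested probe sets.

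The period gene per3 lay at 8.46, 8.62, 8.45 and 8.70 in intact telencephalon. After nostril injury it measured 8.75, 8.69 and 9.20 at 7 dpi, overlapping the highest intact replicate. After skull injury it measured 8.923, 9.011 and 9.004, above all intact replicates. The differences were 0.32 (adjusted p = 0.38, limma) and 0.42 (adjusted p = 0.25, limma). With nr1d2b counted, every 7 dpi replicate exceeded every intact one in 5 of 10 clock genes after nostril injury, against 8.98% of all tested probe sets. With nr1d2b and per3 counted, it did in 6 of 10 after skull injury, against 9.39%.

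The remaining genes showed no call at 7 dpi. Here the light-induced period gene per2 spanned wide ranges, with 9.16, 8.84, 9.38 and 9.75 in intact telencephalon, 9.13, 9.41 and 10.81 at nostril 7 dpi and 9.60, 9.41 and 10.09 at skull 7 dpi. These groups overlapped. The estimates were 0.50 (95% interval -0.15 to 1.15) and 0.41 (95% interval -0.24 to 1.06). A second per2 probe set correlated with the first at only 0.39 across the 29 replicates, which share arrays and injury groups, and differed from intact by -0.11 at nostril 7 dpi and by 0.14 at skull 7 dpi, neither called. The difference between the probe sets was not tested.

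At 7 dpi the receptor gene nr1d2a differed widely between replicates of the same group. Its intact values were 9.78, 9.64, 9.76 and 9.64. The pair of technical arrays averaged as the first of these read 9.67 and 9.89, further apart than the intact replicates. At 7 dpi it read 9.21, 9.44 and 10.56 after nostril injury and 8.79, 10.36 and 10.53 after skull injury, so that each injury group held replicates below and above the whole intact range. The estimates were 0.03 (95% interval -0.61 to 0.67) and 0.19 (95% interval -0.45 to 0.83).

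The light-induced cryptochrome cry1a had intact values of 8.82, 8.75, 8.82 and 8.70 and 7 dpi values of 8.23, 8.22 and 8.89 after nostril injury and 8.34, 8.72 and 8.76 after skull injury. The groups overlapped, and the estimates of -0.32 (95% interval -0.63 to -0.02, adjusted p = 0.27, limma) and -0.16 were not called. The D-box factor tefa likewise overlapped, at 8.40 to 8.94 in intact telencephalon, 8.24 to 8.89 at nostril 7 dpi and 8.50 to 8.71 at skull 7 dpi, with estimates of -0.17 and -0.07.

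**Figure D2:**
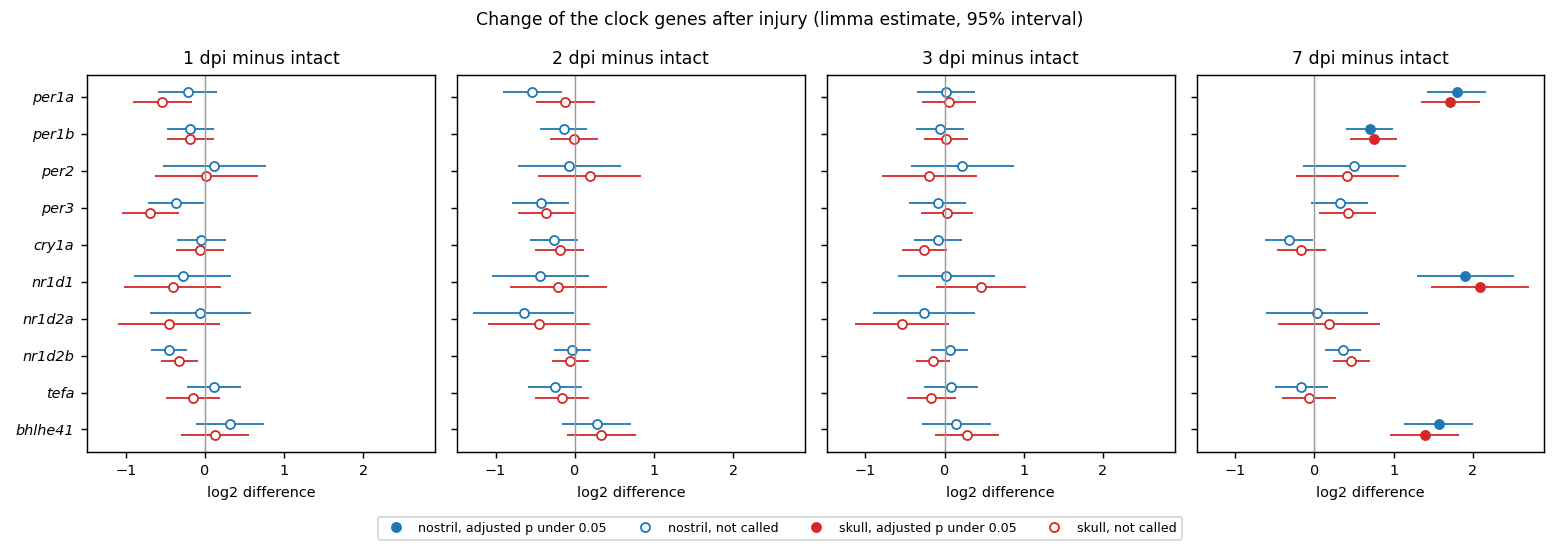
Log2 difference from intact (x axis) of each clock gene (y axis) at 1, 2, 3 and 7 dpi after nostril (blue) and skull (red) injury, as limma estimates with 95% intervals and filled points where the adjusted p was under 0.05. Filled points appear at 7 dpi alone, for per1a, per1b, nr1d1 and bhlhe41 after both injuries.

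During the first 3 days no clock gene was called against intact telencephalon. The count was 0 of 10 at 1 dpi after nostril injury, where 0.836% of tested probe sets were called by limma in either direction, and after skull injury, where 0.612% were. It was also 0 of 10 at 2 dpi, against 0.529% and 0.302%, and at 3 dpi, against 0.0861% after nostril and 7.93% after skull injury. At an unadjusted p under 0.05, limma gave 2 and 3 of 10 genes at 1 dpi after nostril and skull injury, where it gave 10.2% and 10.6% of all tested probe sets. At 2 dpi it gave 3 and 1 of 10, against 12.6% and 9.06%, and at 3 dpi 0 and 0, against 7.07% and 25.6%. The share at skull 2 dpi was near that of all probe sets, and at skull 3 dpi it was below it.

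Most estimates at 1 and 2 dpi were below intact, a lean that was not tested. How many of all tested probe sets lay below every intact replicate at 1 to 3 dpi was not counted. Such separation is therefore given as description only. For per1a, cry1a, nr1d2a and nr1d2b the pair of technical arrays of intact replicate 1 differed by 0.208 to 0.228, more than the intact replicates did. For the other clock genes the pair differed by less than the intact replicates. At 1 dpi 3 of 10 clock genes had an estimate above intact after nostril injury and 2 of 10 after skull injury, and at 2 dpi 1 and 2 of 10 did. At 3 dpi the counts were 6 and 5 of 10. At skull 1 dpi per3 measured 7.81, 7.80 and 7.98, below every intact replicate, a difference of -0.69 (SE 0.17, adjusted p = 0.068, limma). In the same group per1a measured 4.62, 5.08 and 4.98, also below every intact replicate, a difference of -0.54 (adjusted p = 0.24, limma). Neither passed the test, though both did when skull 3 dpi was left out of the fit.

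The same 2 genes were low at nostril 2 dpi. There per1a measured 5.02, 5.02 and 4.65 (difference -0.54, adjusted p = 0.20, limma) and per3 measured 8.15, 8.25 and 7.97, all below the intact values. At nostril 1 dpi nr1d2b stood at 8.70, 8.54 and 8.22, below its intact range, with a difference of -0.46 (adjusted p = 0.054, limma). In that group per1a (5.153, 5.346 and 5.135) and per3 (8.357, 8.083 and 8.133) also lay below every intact replicate. So did nr1d2b at skull 1 dpi (8.566, 8.607 and 8.68). At skull 2 dpi per3 (8.363, 8.239 and 7.991) and cry1a (8.551, 8.515 and 8.667) did as well, and none of these was called. The receptor gene nr1d2a lay below every intact replicate in 4 groups, with differences of -0.46 at skull 1 dpi, -0.65 at nostril 2 dpi, -0.45 at skull 2 dpi and -0.54 at skull 3 dpi. Its nostril 2 dpi values were 8.78, 9.37 and 9.03 (adjusted p = 0.39, limma), the lowest estimate of the 10 genes in that group, and none of these differences was called. By nostril 3 dpi per1a (5.63, 5.41 and 5.30), per3 (8.60, 8.45 and 8.37) and nr1d2b (9.05, 8.95 and 9.02) overlapped their intact values again. In the other direction, bhlhe41 at nostril 1 dpi (9.299, 9.217 and 9.284) lay above every intact replicate, the highest of which read 9.213. It was not called.

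Ordered by mean level across the 9 groups, both 7 dpi groups ranked above the other 7 for all clock genes but cry1a and tefa. For per1a the nostril 7 dpi mean was 7.23 and the skull 7 dpi mean 7.15, which overlapped, and a gap of 1.66 without overlap separated them from skull 3 dpi at 5.49. The other neighbours in the order of per1a overlapped, except nostril 1 dpi and nostril 2 dpi. For per2, cry1a, nr1d2a and tefa every pair of neighbouring groups in the order overlapped. A moderated F test over the 9 groups called 6 of 10 clock genes, where it called 10.4% of tested probe sets. They were per1a (adjusted p = 7.0e-08), nr1d1 (2.4e-05), bhlhe41 (1.9e-04), nr1d2b (3.6e-04), per1b (5.5e-04) and per3 (0.0034).

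The rise appeared between the 3 dpi and the 7 dpi samples. From nostril 3 dpi to nostril 7 dpi per1a rose by 1.78, nr1d1 by 1.88, bhlhe41 by 1.42 and per1b by 0.76, 4 of 10 clock genes where 0.312% of all tested probe sets rose. The nostril 3 dpi values of nr1d1 were 7.54, 7.58 and 7.99, and those of bhlhe41 were 8.97, 9.06 and 9.28, all below the 7 dpi values. The call of per1b (adjusted p = 0.018, limma) was lost without either of the first 2 nostril 3 dpi replicates or any nostril 7 dpi replicate, when the adjusted p ran from 0.051 to 0.092.

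From skull 3 dpi to skull 7 dpi 5 of 10 clock genes rose, per1a by 1.66, nr1d1 by 1.63, bhlhe41 by 1.11, per1b by 0.74 and nr1d2b by 0.62, against 8.32% of all tested probe sets. Skull 3 dpi values of nr1d2b were 8.97, 8.83, 8.52 and 8.85, so its replicates did not overlap those of 7 dpi (adjusted p = 0.0024, limma). No clock gene was called between earlier neighbouring days, where the share of tested probe sets called was 0.509% and 0% from 1 to 2 and from 2 to 3 dpi after nostril injury, and 0.0197% and 4.65% after skull injury. At an unadjusted p under 0.05, limma gave 2 and 1 of 10 clock genes for these nostril steps, against 11.6% and 5.72% of all tested probe sets, and 2 and 2 for the skull steps, against 3.16% and 21.8%.

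The 2 injuries were compared directly at each day. No clock gene differed between skull and nostril injury at 1 dpi, where 0.0344% of tested probe sets were called by limma, at 2 dpi (0%), at 3 dpi (3.59%) or at 7 dpi (0%), and at an unadjusted p under 0.05 limma gave 0, 1, 0 and 0 clock genes, against 6.57%, 2.35%, 21.3% and 2.89% of all tested probe sets. At 7 dpi skull minus nostril was -0.08 for per1a (95% interval -0.48 to 0.32), 0.05 for per1b (-0.27 to 0.37), 0.19 for nr1d1 (-0.47 to 0.84) and -0.18 for bhlhe41 (-0.64 to 0.28). For nr1d2a the interval was the widest of the 10 but for per2, at -0.53 to 0.84. These intervals still hold differences of up to 0.84 on the log2 scale, so the injuries are not shown to act alike on the clock genes.

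Single replicates were the highest or lowest of their group in several clock genes at once. How often this held over all tested probe sets was not counted, so these counts are description only. Intact replicate 2, which enters every comparison with intact, was the lowest of its group in 8 of 10 clock genes. Nostril 1 dpi replicate 3 was the lowest in 7 of 10 and nostril 2 dpi replicate 3 in 8 of 10, with nr1d1 at 6.44 in the latter. Nostril 7 dpi replicate 3 was the highest of its group in 9 of 10 clock genes, among them per2 at 10.81 and nr1d2a at 10.56. The exception was bhlhe41, where it was the lowest at 10.30. Skull 7 dpi replicate 1 was the lowest of its group in 6 of 10, with nr1d2a at 8.79 while the others read 10.36 and 10.53, and the highest for bhlhe41 at 10.72.

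At skull 3 dpi, replicate 4 was the highest of its group for per1a at 6.08, per1b at 9.08, per3 at 9.29, nr1d1 at 8.94 and bhlhe41 at 9.89. The other 3 replicates of that group reached 5.54, 8.66, 8.43, 7.96 and 9.19 for these genes. It was the lowest of its group for cry1a, nr1d2a and tefa. Without it, per3 was also called from skull 3 dpi to skull 7 dpi, at a difference of 0.62 (adjusted p = 0.0042, limma). Without skull 7 dpi replicate 1, nr1d2a was called over the same step at 1.28 (adjusted p = 0.0092, limma). With all replicates its difference was 0.73 (adjusted p = 0.13, limma) and was not called. In each case the replicate left out lay farthest from the others of its group, so these values are description only.

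The spread within groups differed between the genes. The residual SD was 0.44 for per2, 0.43 for nr1d2a and 0.41 for nr1d1, at percentiles 87.2, 86.8 and 85.4 of the tested probe sets, whose median was 0.23. It was 0.24 for per1a, 0.19 for per1b and 0.13 for nr1d2b. So the fold rise of nr1d1 exceeded that of per1a while its adjusted p was the larger.

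**Figure D3:**
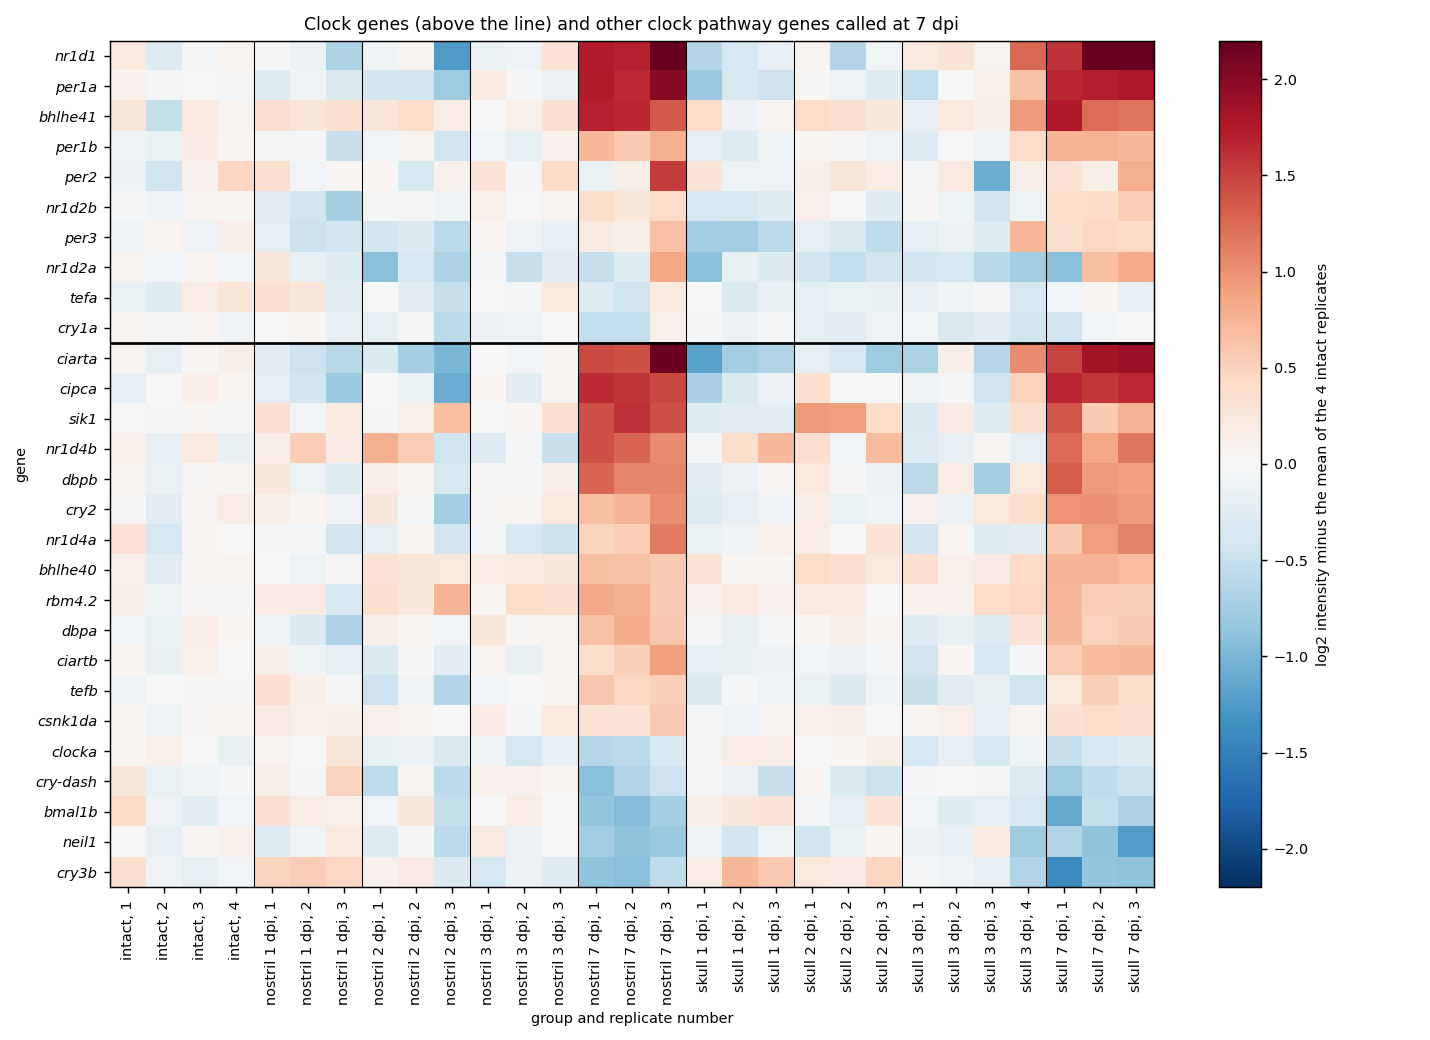
Log2 intensity minus the mean of the 4 intact replicates (colour, blue lower and red higher, from -2.2 to 2.2) for the 10 clock genes above the line and 18 further clock pathway genes called at 7 dpi below it, in each of the 29 replicates (x axis). The 6 columns of 7 dpi are red for nr1d1, per1a and bhlhe41 and for ciarta and cipca, and skull 3 dpi replicate 4 is paler red for nr1d1, bhlhe41 and ciarta.

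The other genes of the clock pathway were counted from lists that hold no member of the 10. Of 78 symbols listed, older and alternative spellings included, 49 matched a probe set and 47 were tested. At nostril 7 dpi 13 of 47 rose and 5 fell against intact, where 1.21% of all tested probe sets rose and 0.538% fell. At skull 7 dpi 11 of 47 rose and 3 fell, where 0.519% of all tested probe sets rose and 0.189% fell. These shares apply to every list below. As the lists too were chosen with earlier results of these data known, the counts beside these shares are no independent test. The median difference of the 47 was 0.02 and 0.07. At 1, 2 and 3 dpi, limma called 0.836%, 0.529% and 0.0861% of all tested probe sets after nostril injury. After skull injury it called 0.612%, 0.302% and 7.93%. In the 47 genes, 3 differences from intact were called on these days, none of them after nostril injury. They were those of cry4, a cryptochrome, which rose by 0.72 at skull 1 dpi and by 0.79 at skull 2 dpi, and of ddb2, a DNA damage recognition gene, which fell by 0.75 at skull 1 dpi. Each call of cry4 was lost without 6 of the 7 replicates in turn, all but intact replicate 1 (adjusted p up to 0.18 and 0.12). That of ddb2 was lost without intact replicate 1 or 4 and without either of skull 1 dpi replicates 1 and 2 (adjusted p up to 0.13).

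All 4 E-box repressors that could be tested rose at 7 dpi after each injury, while other symbols of that list matched no probe set. The repressor gene ciarta, homologous to the mammalian Chrono gene, had intact values of 7.99, 7.72, 7.97 and 8.07 and 7 dpi values of 9.39, 9.34 and 10.10 after nostril injury and 9.43, 9.77 and 9.82 after skull injury. It rose by 1.67 (SE 0.29, adjusted p = 0.0044, limma) and 1.73 (SE 0.29, adjusted p = 0.0067, limma), and the second call was lost without skull 7 dpi replicate 3 (adjusted p = 0.053). The gene cipca, related to the CLOCK-interacting pacemaker of mammals, rose by 1.56 and 1.62 from intact values of 7.35 to 7.70 to 7 dpi values of 9.04 to 9.24. The paralogue of bhlhe41, bhlhe40, rose by 0.63 and 0.72, and ciartb by 0.60 and 0.65. Some single replicates decided the calls of ciartb, 3 of 7 left out in turn for nostril and 4 of 7 for skull injury.

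Of the 6 genes of the positive arm, 2 fell after nostril injury and 1 after skull injury. The gene bmal1b, whose protein pairs with Clock, fell by 0.85 after nostril injury (SE 0.17, adjusted p = 0.011, limma) and by 0.77 after skull injury (adjusted p = 0.034, limma). Its intact values were 7.05, 6.51, 6.37 and 6.56 and its 7 dpi values 5.78, 5.67 and 5.88, then 5.51, 6.09 and 5.94, with no overlap. The partner gene clocka fell by 0.52 after nostril injury alone (adjusted p = 0.015, limma), and differed by -0.36 after skull injury (adjusted p = 0.10, limma). All 6 had estimates below intact after both injuries.

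Cryptochromes and the photolyase cry5 were mixed. Of these 7 genes, cry2, a repressor of the loop, rose by 0.82 and 0.98, from intact values of 8.57, 8.31, 8.60 and 8.70 to 9.21, 9.30 and 9.57 and to 9.53, 9.55 and 9.48. The other direction was taken by cry3b, which fell by 0.79 after nostril and by 1.05 after skull injury, and by cry-dash, which fell by 0.68 after nostril injury. The 4 others were not called at 7 dpi.

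Among 9 PAR bZIP and nfil3 genes, dbpb rose by 1.14 and 1.05 and dbpa by 0.68 and 0.60 after nostril and skull injury, while tefb, the paralogue of tefa, rose by 0.52 after nostril injury. None of the 9 fell. PAR bZIP genes are outputs of the loop, and nfil3 genes encode repressors at the same D-boxes. Of 6 ROR and REV-ERB receptor genes, nr1d4b rose by 1.25 and 1.08 and nr1d4a by 0.73 and 0.86, and none of the ror genes was called.

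Among kinases and F-box proteins, which act on the period and cryptochrome proteins, 1 of 5 rose, csnk1da by 0.40 after nostril injury. Of 6 accessory genes, sik1, a salt-inducible kinase, rose by 1.48 after nostril and by 0.90 after skull injury, and rbm4.2, an RNA-binding protein gene, by 0.73 and 0.60. For sik1 the nostril 7 dpi values were 8.77, 8.97 and 8.77 and the skull 7 dpi values 8.75, 7.93 and 8.10, against 7.33 to 7.39 in intact telencephalon. After skull injury the call of sik1 was lost when either of intact replicates 2 and 4 (adjusted p = 0.094 and 0.074) or either of skull 7 dpi replicates 1 and 3 (0.19 and 0.078) was left out. Of 4 light-induced and DNA repair genes, neil1, a DNA glycosylase gene, fell by 0.82 and by 0.92.

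**Figure D4:**
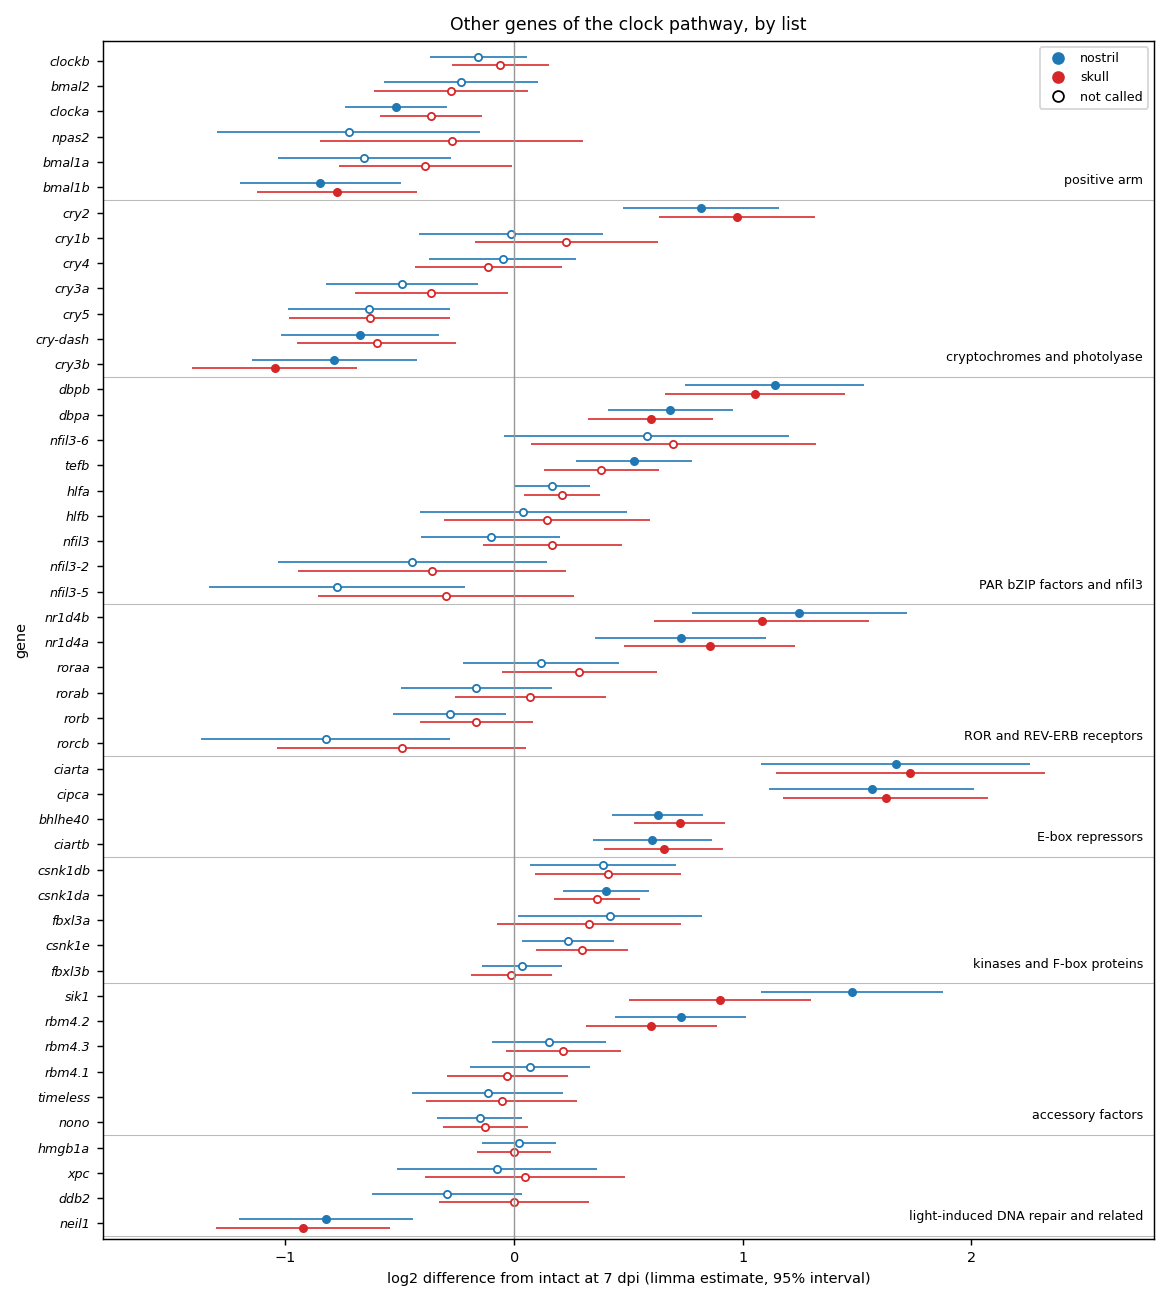
Log2 difference from intact at 7 dpi (x axis, limma estimate with 95% interval) of the 47 other clock pathway genes (y axis), grouped by list, after nostril (blue) and skull (red) injury, with filled points where the adjusted p was under 0.05. All 4 E-box repressors lie to the right of 0 and all 6 positive arm genes to the left.

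Between skull and nostril injury, 1 of 47 pathway genes was called at 3 dpi, lower after skull injury (adjusted p = 0.024, limma). There 3.59% of all tested probe sets were called. None was called at 1 or 2 dpi, where 0.0344% and 0% of all tested probe sets were. None of the 47 pathway genes was called between skull and nostril injury at 7 dpi by limma, where 0% of all tested probe sets were. At an unadjusted p under 0.05, limma gave 1 of 47, near the 2.89% of all tested probe sets. Many pathway calls rested on single replicates. Of the 32 calls at 7 dpi, 8 held without any single replicate, those of bhlhe40 and cipca after both injuries, of ciarta, dbpb and sik1 after nostril injury and of cry2 after skull injury. The other 24 were lost without at least 1 replicate, with adjusted p up to 0.21. For bmal1b the nostril call was lost without nostril 7 dpi replicate 1 or 2 (adjusted p = 0.056 and 0.077). Its skull call was lost when any of intact replicates 1, 2 and 4, or either of skull 7 dpi replicates 1 and 3, was left out (adjusted p = 0.072 to 0.20).

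Over the step from 3 to 7 dpi, 7 of 47 pathway genes rose and 4 fell after nostril injury, where 0.312% of all tested probe sets rose and 0.438% fell. After skull injury 16 of 47 rose and 5 fell over this step, where 8.32% of all tested probe sets rose and 3.19% fell. From skull 2 to skull 3 dpi 0 of 47 rose and 6 fell, where 4.65% of all tested probe sets were called in either direction. At skull 3 dpi, replicate 4 again stood nearest to 7 dpi for several genes, with ciarta at 8.97 against 8.06 or less in the other 3 replicates, and neil1 at 5.09 against 5.70 or more.

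For each clock gene the 3 probe sets with the most similar profile were taken by Pearson correlation over the 29 replicates, which share their groups and arrays. The nearest to per1a was ciarta (r = 0.97), followed by cipca (r = 0.95) and nr1d1 (r = 0.94), and for per1b it was cipca (r = 0.96). The nearest to nr1d1 were ciarta and cry2 (r = 0.95 each) and to nr1d2b dbpa (r = 0.87). Without the 7 dpi groups, over 23 replicates, these values were lower. They were 0.87 for per1a and ciarta, 0.65 for per1a and cipca, and 0.70 for per1a and nr1d1. They were 0.80 for per1b and cipca, 0.75 and 0.81 for nr1d1 with ciarta and cry2, and 0.73 for nr1d2b and dbpa.

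For per3 the nearest was ciarta, at 0.90 over all replicates and 0.90 without 7 dpi. The genes nearest to nr1d2a were no clock genes of the lists, namely sox11b (r = 0.93), pfkfb4b (r = 0.92) and klf9 (r = 0.91), and for klf9 the value within groups, after each group's mean was removed, was 0.94. Nearest to bhlhe41 were junba, dusp2 and tcp11l2 (r = 0.91 each), at 0.78, 0.60 and 0.54 without 7 dpi. The nearest to cry1a, per2 and tefa reached only 0.83 with lonrf1, 0.77 with adra2db and 0.70 with slc25a47a.

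Markers of other cells and tissues were read beside the 7 dpi result. Of 10 pineal and photoreceptor markers matched and 9 tested, 0 were called at 7 dpi by limma, and their summed linear intensity was 218 to 250 in intact telencephalon, 224 to 253 at nostril 7 dpi and 209 to 234 at skull 7 dpi. It reached 3933 in nostril 1 dpi replicate 3, 1702 in nostril 2 dpi replicate 2 and 2836 in skull 2 dpi replicate 3, and was 253 or less in all others. Of 7 microglia and macrophage markers 0 were called at 7 dpi. At 1, 2 and 3 dpi 3, 6 and 1 of the 7 rose after nostril injury, and 6, 5 and 6 after skull injury. Of all tested probe sets, 0.836%, 0.529% and 0.0861% were called on these days after nostril injury, in either direction. After skull injury 0.612%, 0.302% and 7.93% were. The summed level of 6 neuronal markers was 8417 to 9922 in intact telencephalon, 10473 to 11313 at nostril 7 dpi and 10820 to 11516 at skull 7 dpi, with 1 of 6 called after nostril injury. At an unadjusted p under 0.05, limma gave 5 of 6 neuronal markers at 7 dpi after each injury. It gave 6642 and 6076 of the 40670 tested probe sets there, after nostril and skull injury. At 2 dpi the neuronal sum was 9715 to 11163 after nostril and 9758 to 10237 after skull injury, and limma gave 3 of 6 markers each at that threshold. The part of the neuronal sum in the rise of the clock genes was not tested. The summed level of 5 ependymoglia markers was 10872 to 12602 in intact telencephalon, 9007 to 11127 at nostril 7 dpi, where 1 fell, and 9890 to 10487 at skull 7 dpi. No hypothalamus, red blood cell, oligodendrocyte or endothelial marker was called at 7 dpi by limma. The 6 matched hypothalamus and preoptic markers, 3 of them tested, varied widely. Their sum was 978 to 8354 at nostril 7 dpi and 5294 to 11285 in intact telencephalon.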

How the data were processed

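The authors deposited log2 intensities per probe set of the Affymetrix Zebrafish Gene 1.0 ST array, made with Affymetrix Expression Console 1.3 by gene-level RMA (per the labels and the study's methods), with background correction, quantile normalization and median-polish summary. RMA shares a scale among arrays and compresses large changes. Gene symbols came from the platform annotation. Sequences were not used here. The pair of technical arrays of intact replicate 1 was averaged. A linear model of 9 groups was fitted to all 75212 probe sets with limma 3.58.1 in R 4.3.3 (residual df 20, prior df 3.51), p-values were adjusted over the 40670 tested, and 18 contrasts and an F test were made. The number of arrays limits the precision. The model code was tested on simulated data. The 10 genes, the pathway lists and the marker lists were chosen with earlier results of these data known. Pathway genes are named only where called in the contrast described, at most 4 a list by smallest p, apart from values given for skull 3 dpi replicate 4. Alternatives changed the samples in the fit, the technical arrays, normalization, replicate number as a block, variance moderation, array weights, the filter, the methods' criteria (unadjusted p under 0.05, fold change above 1.6), per2's probe sets, and each replicate. Figures were drawn with matplotlib 3.10.9.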

Additional observations from a re-analysis of the deposited data

Results flagged for a closer look

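In a group of 4 replicates, 1 of 20 sets of clock gene values had an end value far from the others by Dixon's test, and chance alone gives about 1 in 20. It was per3 at skull 3 dpi, where replicate 4 measured 9.29 and the others 8.37, 8.43 and 8.27, so that the gap made up 0.846 of the whole range.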

How the results depend on the processing

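No called difference of a clock gene, and none of a pathway gene against intact, changed sign under any alternative run. Pathway calls of other comparisons were not rerun. For clock genes called at 7 dpi against intact or 3 dpi, 186 of 199 alternative values and 103 of 115 values with a replicate left out kept the call, and for pathway genes called against intact 363 of 420 and 144 of 245 did. With only the groups of the contrast in the fit, and so fewer replicates to estimate the spread, the clock genes called were 1 at skull 7 dpi against intact, 1 from nostril 3 to 7 dpi and 0 from skull 3 to 7 dpi, in place of 4, 4 and 5. At nostril 1 dpi against intact 1 gene (nr1d2b) was called in place of 0 with technical array 1 alone, with trended and robust moderation, with array weights and without skull 3 dpi in the fit. At skull 1 dpi against intact the count was 1 with array weights and 1 by the methods' criteria (per3 each time) and 2 without skull 3 dpi in the fit (per1a and per3), and at nostril 2 dpi against intact it was 1 (per1a) without skull 3 dpi in the fit. At skull 7 dpi against intact nr1d2b joined the called genes under 5 alternatives (adjusted p = 0.020 to 0.044). The cause was not tested. With 1 replicate left out the counts ran from 0 to 1 at nostril 1 dpi against intact (1 without nostril 1 dpi replicate 1), from 3 to 4 at nostril 7 dpi, skull 7 dpi and nostril 7 against 3 dpi, from 5 to 6 at skull 7 against 3 dpi and from 6 to 7 by the F test. Whether replicate numbers pair the samples is not given in the sources used here. Same-numbered replicates of different groups correlated at -0.14 to 0.21 in their deviations (median -0.0022, 109 pairs). Differently numbered ones correlated at -0.18 to 0.24 (median 0.0039, 264 pairs). Such correlations over all tested probe sets cannot show whether a pairing acts on some genes. With the replicate number as a block, 4 clock genes were called at nostril 7 dpi and 4 at skull 7 dpi against intact, and 6 in place of 5 from skull 3 to 7 dpi. The early pathway calls against intact, of cry4 at skull 1 and 2 dpi and of ddb2 at skull 1 dpi, were lost (adjusted p = 0.072, 0.059 and 0.051, limma). Some pathway calls at 7 dpi were lost too. After nostril injury these were cry-dash, tefb and nr1d4a (adjusted p = 0.057, 0.057 and 0.074, limma). After skull injury they were bmal1b, nr1d4a, nr1d4b and rbm4.2 (adjusted p = 0.054, 0.058, 0.060 and 0.063, limma). All calls at skull 7 dpi against intact went from 288 to 163.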
